A study of Mus musculus with 2 samples.

Results

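The let-7 family of microRNAs (miRNAs) was examined in the embryonic mouse forebrain through the 10 of its genes that have a row in the count tables: Mirlet7a-1, Mirlet7a-2, Mirlet7b, Mirlet7c-1, Mirlet7c-2, Mirlet7d, Mirlet7f-2, Mirlet7g, Mirlet7i and Mir98. The genes were chosen by name, with Ensembl identifiers matched to the GENCODE annotation, and they are 10 of 1973 miRNA gene rows. MicroRNA-seq, which reads RNA of under 30 bases, was made from forebrain of B6NCrl embryos of both sexes at embryonic day 11.5 (E11.5), pooled from 109 embryos for replicate 1 and 88 for replicate 2. The series holds this 1 group without treatment or control, and the labels tie both pools to the same donor entry. Levels are given as CPM, the usual count scale for libraries of unequal depth, here the counts on the strand of a gene over the sum of such counts for all miRNA genes, times 1000000. Each ± is an SD over the 2 libraries. A read spans a whole mature miRNA, so levels were not divided by hairpin length, and the counts of a gene sum both sides of its hairpin.

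The libraries held 1281201 and 1297647 counts on the strand of miRNA genes, at which 3 counts are 2.34 and 2.31 CPM. Reads that map to several places, 1165381 and 1001079 of them, are in no gene row. The sample was checked against miRNA markers of forebrain and other tissues. The 8 neural marker genes in the tables summed to 23636 and 20496 CPM, and 7 of them reached 2 CPM in each library, while 6 Hox cluster genes of the hindbrain and trunk summed to 209.96 and 83.998 CPM, with Mir196a-1 at 0. Most of the neural sum was Mir92b (17079 ± 1908 CPM), Mir137 (2536 ± 316 CPM) and Mir153 (1939 ± 64.8 CPM), with Mir9-3 at 479 ± 62.4 CPM. The neuronal Mir124a-1, Mir124a-2 and Mir124a-3 were at 1.56, 20.5 and 3.49 CPM and Mir9-2 at 8.16 CPM, within the range of the Hox genes, of which Mir10a was highest at 80.9 CPM. Both mature forms of Mir9-3 also occur in other hairpins, and reads that map to several places are in no row. The levels of the Mir9 and Mir124a gene copies may thus leave out an unknown number of reads, which limits their comparison with the Hox genes. The endothelial Mir126a stood at 34601 and 30323 CPM, 3 erythroid genes summed to 606 and 371 CPM, and 3 leukocyte genes to 759 and 761 CPM. The liver gene Mir122 had 21.1 and 6.17 CPM, and 6 striated muscle genes summed to 238 and 120 CPM. Most of the muscle sum was Mir208b (191 and 96.3 CPM), with Mir208a at 39.8 and 20.8 CPM and Mir206 at 7.02 and 3.08 CPM. Mir1a-1, Mir133a-1 and Mir133a-2 were at 0, and a level of 0 may leave out reads that map to several places. The part of such other cells in the levels below was not tested, and in bulk tissue fewer cells of a type and less RNA per cell cannot be told apart.

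The let-7 family, first found in worms as a timer of development, is a set of nearly identical miRNAs that share a seed, the bases by which a miRNA pairs with messenger RNAs. Each is cut from a hairpin by Drosha and Dicer, and its targets include growth and cell cycle genes such as Hmga2 and Lin28a. In stem cells and early neural progenitors the RNA-binding protein LIN28 binds the loop of most let-7 precursors, recruits enzymes that add uridines to their end and leads them to decay, and mature let-7 accumulates as progenitors leave the cell cycle and LIN28 falls. Long transcripts that carry the hairpins can therefore be made well before the mature forms appear.

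The mature forms from the 5′ side of the hairpin are shown because their likeness decides which reads can be given to a gene. All 10 members matched a RefSeq hairpin (GRCm38.p6), at the same position as in GENCODE. The family has 9 distinct 5′ forms of 22 bases with 1 seed, which is in capitals (bases 2 to 8). Sequences run 5′ to 3′.
let-7g-5p: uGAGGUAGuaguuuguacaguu
let-7i-5p: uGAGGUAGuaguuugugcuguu
let-7d-5p: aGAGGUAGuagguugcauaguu
miR-98-5p: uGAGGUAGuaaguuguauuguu
let-7b-5p: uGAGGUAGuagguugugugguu
let-7a-5p: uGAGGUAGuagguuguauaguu
let-7c-5p: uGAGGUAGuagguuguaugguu
let-7f-5p: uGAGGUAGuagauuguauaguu
let-7e-5p: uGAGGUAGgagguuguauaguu

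Mirlet7a-1 and Mirlet7a-2 both hold let-7a-5p, Mirlet7c-1 and Mirlet7c-2 both hold let-7c-5p, and Mirlet7f-1 and Mirlet7f-2 both hold let-7f-5p. The other 6 forms occur in 1 hairpin each of 2227 mouse miRNA hairpins searched on both strands. Places outside annotated hairpins were not searched. A unique form can still lie close to another. With positions counted from the 5′ end, let-7b and let-7c differ only by G17A, and let-7e and let-7a only by G9U, while let-7g, let-7i, let-7d and miR-98 are each at least 2 bases from every other form. The widest gap, 6 bases, stood between let-7d and let-7i.

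**Figure D1:**
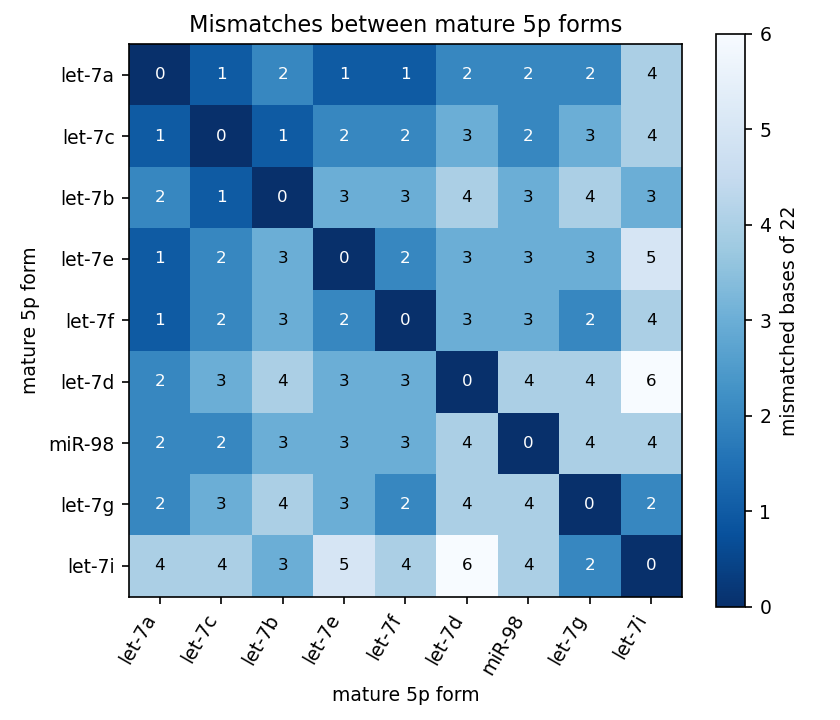
Number of mismatched bases between each pair of the 9 mature 5′ forms of the let-7 family, each 22 bases long, with rows and columns in the same order and darker cells for fewer mismatches. let-7a lies 1 base from each of let-7c, let-7e and let-7f, whereas let-7i is 2 bases from let-7g and 3 or more from all others.

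The forms from the 3′ side differ more, and for genes with a shared 5′ form they are the part by which a read can be placed. They are shown for the 5 members whose 5′ form is shared, again with bases 2 to 8 in capitals.
let-7f-2-3p: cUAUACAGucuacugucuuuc
let-7c-1-3p: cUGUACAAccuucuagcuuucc
let-7a-2-3p: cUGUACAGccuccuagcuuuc
let-7a-1-3p: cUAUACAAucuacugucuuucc
let-7c-2-3p: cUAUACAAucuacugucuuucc
The last pair is identical. Mirlet7a-1 thus shares its 5′ form with Mirlet7a-2 and its 3′ form with Mirlet7c-2, and Mirlet7c-2 shares its 5′ form with Mirlet7c-1, so 2 members have no mature form of their own. Mirlet7f-2, Mirlet7c-1 and Mirlet7a-2 have 1 such form each, on the 3′ side. Mirlet7g, Mirlet7i, Mirlet7d, Mir98 and Mirlet7b have both.

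Mirlet7g (ENSMUSG00000065440) was the member with the most counts. Its level was 17969.9 CPM in replicate 1 against 19569 CPM in replicate 2, with a mean of 18769.6 ± 1131 CPM, and it ranked number 12 and number 10 among the 1973 genes. The gene lies on chromosome 9 from 106178840 to 106178927 of mm10, in an intron of Wdr82, which encodes a subunit of a histone methyltransferase complex. By itself it made up 61.3% of the counts of the 10 members in replicate 1, with a 95% Wilson interval of 60.8 to 61.7%. Its share in replicate 2 was 64.3% (63.8 to 64.8%).

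Mirlet7i (ENSMUSG00000065406) followed with 7143 and 6680 CPM, or 6912 ± 328 CPM. It stands alone on chromosome 10 (122985640 to 122985724), in an exon of the transcribed pseudogene D630033A02Rik. Its share of the member counts was 24.3% (23.9 to 24.8%) and 21.9% (21.5 to 22.4%). Mirlet7g was above Mirlet7i in both libraries, by log2 ratios of 1.33 (95% exact Clopper-Pearson interval 1.30 to 1.37) and 1.55 (1.52 to 1.59), and these intervals do not overlap.

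Mirlet7d had 2530.4 and 2478 CPM, or 2504 ± 36.8 CPM and 8.38% ± 0.341 of the member counts. Its gene is on chromosome 13 (48536012 to 48536114), in an exon of the long noncoding RNA 6720427I07Rik. Mir98, which belongs to the family by its seed, had 1035.7 and 1065 CPM, or 1050.4 ± 20.7 CPM and 3.51% ± 0.0222. It lies on chromosome X (151913214 to 151913321) in an intron of Huwe1, which encodes a ubiquitin ligase. The SD was small beside the mean for both genes. Mirlet7g, Mirlet7i, Mirlet7d and Mir98 had ranges over the 2 libraries that did not overlap.

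**Figure D2:**
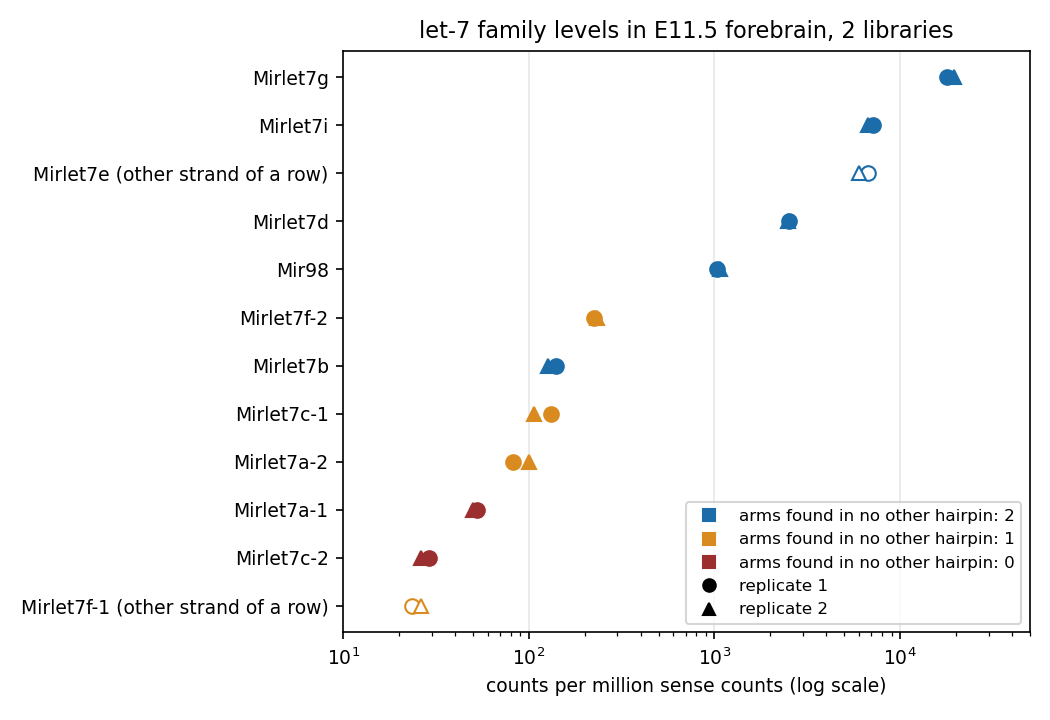
Level of each let-7 family gene in replicate 1 (circles) and replicate 2 (triangles), in CPM on a log scale, coloured by how many of the mature forms of the gene (arms of its hairpin) occur in no other hairpin. Mirlet7g, at 17969.9 and 19569 CPM, lies highest, and the genes with 0 such arms, Mirlet7a-1 and Mirlet7c-2, lie lowest of the 10 members. Open symbols are 2 further genes that were read on the other strand of a row.

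The remaining 6 members were all far lower. Mirlet7f-2, the neighbour of Mir98 in Huwe1, had 223 and 233.5 CPM, or 228 ± 7.26 CPM. Mirlet7b had 140.5 and 127 CPM, or 134 ± 9.43 CPM. Mirlet7c-1 had 131 and 107 CPM, or 119 ± 16.98 CPM. The libraries of Mirlet7b and Mirlet7c-1 overlapped, and this was the only overlap among the 9 pairs of neighbours in the order of levels. Mirlet7b exceeded Mirlet7c-1 by a log2 ratio of 0.10 (-0.21 to 0.41) in replicate 1 and 0.25 (-0.09 to 0.58) in replicate 2, so the counts do not set their order.

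Mirlet7a-2 had 81.95 and 100.2 CPM, or 91.1 ± 12.9 CPM. It was below Mirlet7c-1 by a log2 ratio of 0.68 (0.32 to 1.04) in replicate 1, but in replicate 2 the ratio was 0.10 with an interval from -0.26 to 0.45. Mirlet7a-1 had 52.3 and 50.1 CPM, or 51.2 ± 1.56 CPM. Mirlet7c-2 had the least, 28.9 and 26.2 CPM, or 27.5 ± 1.89 CPM, which rests on 37 and 34 counts. The mean of Mirlet7g was 682-fold that of Mirlet7c-2. The 10 members took the same order in both libraries, and all 10 reached 2 CPM in each, as did 21.5% of all 1973 genes.

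The order of the levels ran alongside the number of mature forms that a gene shares with no other hairpin. The 5 members with both forms to themselves ranged from 134 CPM for Mirlet7b to 18769.6 CPM for Mirlet7g, the 3 with 1 form from 91.1 to 228 CPM, and the 2 with 0 forms from 27.5 to 51.2 CPM. Mirlet7b, whose 5′ form is 1 base from let-7c, was the member with 2 such forms that fell within the range of those with 1. Outside the members, 2 family genes were read on the other strand of a row. Mirlet7f-1, with 1 form of its own, had 24.8 CPM there, below both members with 0 forms. Mirlet7e, with 2, had 6357 CPM, within the range of the members with both. The 5 genes with a unique 5′ form held 98.2% of the member counts in replicate 1 and 98.3% in replicate 2. A whole read of let-7a-5p, let-7c-5p or let-7f-5p matches more than 1 hairpin, and reads that map to several places are not in the gene rows. Such reads, of any sequence, were 31.0 and 25.3 times as many as the counts of the members. The levels of Mirlet7a-1, Mirlet7a-2, Mirlet7c-1, Mirlet7c-2 and Mirlet7f-2 may leave out an unknown number of reads, and the part of this in their low rank was not tested.

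The same split was made for the other miRNA genes with both forms listed by RefSeq. Of 15 such genes with 0 forms of their own, 26.7% reached 2 CPM in each library, against 71.2% of 52 genes with 1 form and 51.3% of 476 genes with both. Among the 4, 37 and 244 genes that reached 2 CPM, median levels were 38.4, 114 and 232 CPM in that order. Over all genes of each group the medians were 0, 34.5 and 3.49 CPM, which do not rise steadily. No gene with 0 forms of its own exceeded 479 CPM, whereas genes with 1 reached 8202 CPM. This is a description of these libraries, since families share both sequence and expression.

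Mirlet7e and Mirlet7f-1 have no row of their own, but rows of predicted genes lie over them on the other strand. Gm25927 (chromosome 17, 17830343 to 17830459, minus strand) covers Mirlet7e (17830352 to 17830444, plus strand). It had 0 counts on its own strand and 8572 and 7816 on the opposite strand, which is the strand of Mirlet7e. Scaled like the members, these are 6691 and 6023 CPM, or 6357 ± 472, below Mirlet7i and above Mirlet7d in both libraries. Gm24111, over Mirlet7f-1 on chromosome 13, likewise had 0 counts on its own strand and 30 and 34 on that of Mirlet7f-1, or 24.8 ± 1.97 CPM. With both added, the family share of counts was 3.60% instead of 2.99%, and the share of Mirlet7g within the family was 49.8% and 53.6%. Mirlet7b alone among the members had opposite-strand counts. It had 4 and 7, or 2.17% (95% exact interval 0.595 to 5.47%) and 4.07% (1.65 to 8.21%) of the counts at its place. Over all genes, the gene's strand held 96.4% and 96.8% of gene counts, and how many genes had 0 opposite-strand counts was not counted.

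Hairpins that lie close together are often cut from the same transcript, so the levels within each locus were set side by side. On chromosome 16, Mirlet7c-1 (77599657 to 77599750, in an intron of Mir99ahg) had 131 and 107 CPM, while Mir99a had 58910 and 55249 CPM and Mir125b-2 711 and 664 CPM. On chromosome 9, Mirlet7a-2 (41536716 to 41536811, in introns of 3110039I08Rik and Gm49317) had 81.95 and 100.2 CPM, against 15017 and 14676 CPM for Mir100 and 2498 and 2234 CPM for Mir125b-1. The let-7 gene was the lowest of the locus in both places and in both libraries, with log2 ratios of Mir99a to Mirlet7c-1 of 8.81 and 9.01 and of Mir100 to Mirlet7a-2 of 7.52 and 7.19. Both forms of Mir99a and of Mir100 occur in no other hairpin, unlike let-7a-5p and let-7c-5p. Mir125b-1 shares its 5′ form with Mir125b-2 and, like Mirlet7a-2, has 1 form of its own, and its level was 26.1-fold that of Mirlet7a-2. The counts of the 5′ and 3′ sides were not separated, and the part of read placement in these gaps was not tested. On chromosome 17, beside Mirlet7e, Mir99b had 35543 and 31136 CPM and Mir125a 6705 and 6130 CPM, and the 6357 ± 472 CPM of Mirlet7e, whose forms are unique, differed from the 6417 ± 407 CPM of Mir125a by less than the spread between libraries.

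Where 2 members share a locus, the gene with the unique 5′ form was the higher. On chromosome 13, Mirlet7d exceeded Mirlet7a-1 (48538179 to 48538272) 48.9-fold, and both lie in exons of 6720427I07Rik. On chromosome 15, Mirlet7b (85707319 to 85707403) exceeded Mirlet7c-2 (85706603 to 85706697) 4.86-fold, both in exons of the noncoding transcript Lncppara. On chromosome X, Mir98 exceeded Mirlet7f-2 (151912346 to 151912428) 4.60-fold. These ratios are geometric means of the 2 libraries, and the libraries were close, with log2 ratios of Mirlet7c-2 to Mirlet7b of -2.28 and -2.28 and of Mirlet7f-2 to Mir98 of -2.21 and -2.19. The lower gene of each pair has a shared 5′ form, and Mirlet7a-1 and Mirlet7c-2 have no form of their own. Their levels may leave out reads that map to several places, and the part of this in the ratios was not tested.

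**Figure D3:**
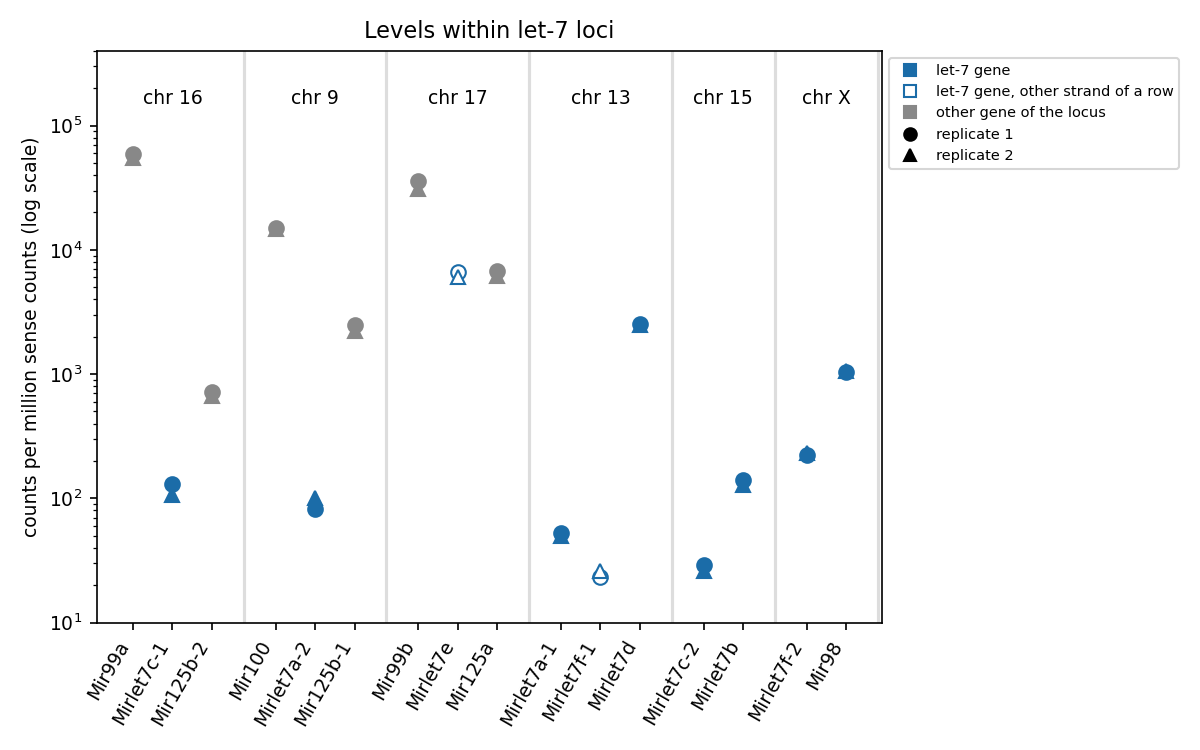
Levels of the genes of 6 let-7 loci in replicate 1 (circles) and replicate 2 (triangles), in CPM on a log scale, with let-7 genes in blue, other miRNA genes of the locus in grey and open symbols for genes read on the other strand of a row. Mirlet7c-1 and Mirlet7a-2 lie far below Mir99a and Mir100, whereas Mirlet7e lies beside Mir125a.

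LIN28 recognises its precursors through the loop, and a zinc knuckle domain of the protein binds the letters GGAG near the 3′ end of it. The bases between the 5′ and 3′ mature forms are shown for 9 members with GGAG in capitals, read on the strand of the hairpin.
Mirlet7g: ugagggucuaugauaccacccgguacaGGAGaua
Mirlet7i: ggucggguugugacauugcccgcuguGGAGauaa
Mirlet7d: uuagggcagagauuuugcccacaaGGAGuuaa
Mirlet7f-2: uuagggucauaccccaucuuGGAGauaa
Mirlet7c-1: uagaguuacacccugGGAGuuaa
Mirlet7a-2: uagaguuacaucaagGGAGauaa
Mirlet7a-1: uuagggucacacccaccacugGGAGauaa
Mirlet7b: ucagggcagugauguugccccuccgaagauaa
Mirlet7c-2: uugggcucugccccgcucugcgguaa

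GGAG was present in 7 of these 9 members, against 8.09% of 643 mouse hairpins with both forms listed, a set that holds let-7 hairpins too. Outside the family it was 6.95% of 633 hairpins, and 5 of the 42 (11.9%) whose loop had a length in the range of these members, 23 to 34 bases. It was not in these letters of Mirlet7b and Mirlet7c-2. The 7 genes with GGAG ranged from 51.2 CPM (Mirlet7a-1) to 18769.6 CPM (Mirlet7g), and the 2 without it had 134 and 27.5 CPM, so the ranges overlapped. Mirlet7c-2, the mouse counterpart of human let-7a-3 and the precursor known to escape LIN28, had the lowest level of the 10 and 0.0923% ± 0.00874 of the member counts. Both of its mature forms are shared with other members, so its level and its escape cannot be read together here. Mir107 and Mir200c, other hairpins known for this motif, also had GGAG between their mature forms and stood at 2820 ± 77.0 and 1053 ± 36.9 CPM. Mir143, also known for it, had 7511 ± 656 CPM, but its mature forms were not both listed, so its loop was not read.

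Precursors also differ in how Drosha leaves their end. Those of let-7a-2, let-7c and let-7e, known as group I, keep the overhang that Dicer prefers, and most others, group II, need a uridine added first. Mirlet7a-2 and Mirlet7c-1 stood at 91.1 ± 12.9 and 119 ± 16.98 CPM, and both have a shared 5′ form, so group and read placement cannot be told apart for them. Mirlet7e, a group I gene with a unique form, had 6357 ± 472 CPM on its strand. Mirlet7c-2 was placed in neither group, and no share is given by group.

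The replicate libraries were compared gene by gene with a two-sided exact binomial test against their totals, adjusted over the 398 genes with 10 counts or more. The test covers counting error alone and compares these libraries, not conditions. All 10 members passed the count minimum. Mirlet7g, with 23023 and 25394 counts, was lower in replicate 1 by a log2 ratio of -0.12 (95% exact interval -0.15 to -0.10, adjusted p = 1.22e-19). Mirlet7i, with 9152 and 8668 counts, was higher in replicate 1 by 0.10 (0.05 to 0.14, adjusted p = 5.2e-05). These 2 members differed in opposite directions, while Mirlet7d (0.03) and Mir98 (-0.04) did not pass. The other 6 ranged from -0.29 for Mirlet7a-2 to 0.29 for Mirlet7c-1, and their intervals held 0.

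Called genes were 1 of 10 members higher and 1 of 10 lower in replicate 1, against 20.6% and 7.79% of all genes tested. With scaling by TMM (trimmed mean of M values) the split over all genes moved from 82 higher and 31 lower to 52 and 54, and with DESeq2 size factors to 61 and 49. Under TMM Mirlet7i no longer passed (log2 ratio 0.03, adjusted p = 0.474), nor did it with size factors (0.05, adjusted p = 0.102). Mirlet7g stayed lower, by -0.19 (adjusted p = 4.48e-48, TMM) and -0.17 (adjusted p = 4.42e-38, size factors). The summed Hox, erythroid and striated muscle markers and Mir122 were also higher in replicate 1. So were the neural sum (23636 and 20496 CPM) and the endothelial Mir126a (34601 and 30323 CPM), but not the leukocyte sum (759 and 761 CPM). The erythroid sum followed Mir451a (493 and 244 CPM), whereas Mir144 (88.2 and 91.7 CPM) and Mir486 (25.0 and 35.4 CPM) were not higher in replicate 1. The part of these markers in the differences was not tested. With an assumed biological coefficient of variation of 0.1 between libraries, the edgeR exact test called 0 members, also at an unadjusted p under 0.05. The assumed value is close to the 10.3% that edgeR estimated from the same 2 libraries. The lack of calls is therefore not separate evidence that the libraries are alike. The median log2 ratio was 0.05 for the members and 0.07 for all genes tested, and the median of the absolute ratio was 0.11 and 0.18.

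**Figure D4:**
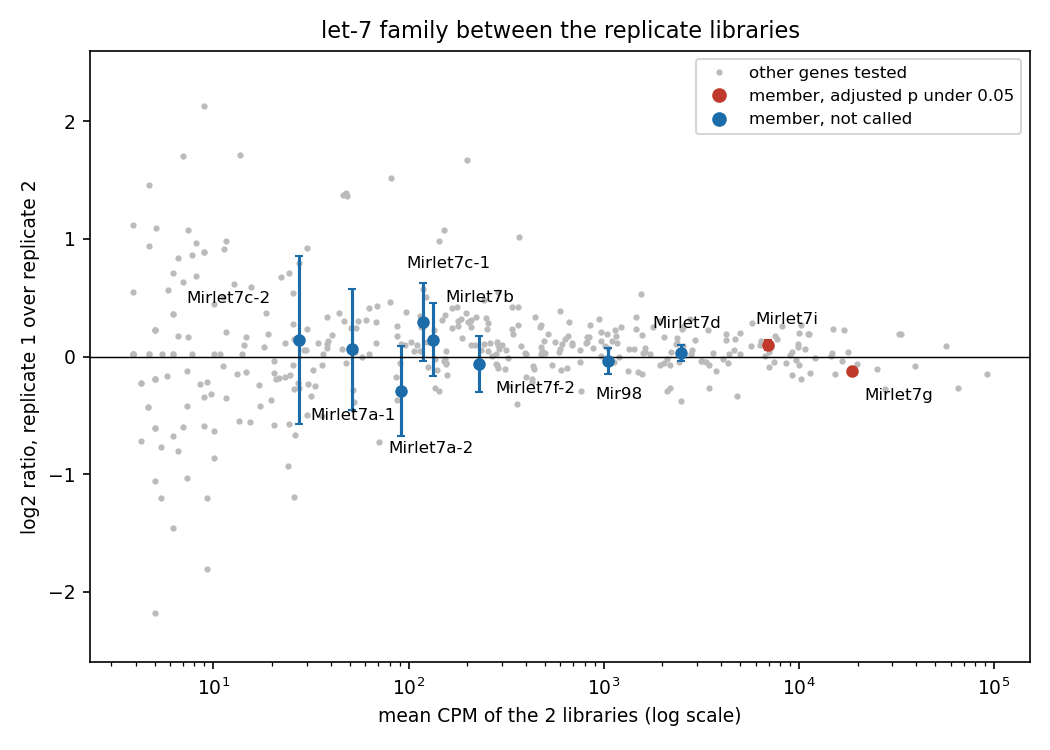
Log2 ratio of replicate 1 over replicate 2 against mean CPM on a log scale, for the 10 let-7 members (large points with 95% exact intervals of counting error) and the other genes tested (grey). Mirlet7g at -0.12 and Mirlet7i at 0.10 are the members that passed an adjusted p of 0.05, and intervals widen towards Mirlet7c-2 at the low end.

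Summed, the 10 members held 37587 counts in replicate 1 and 39496 in replicate 2, which is 2.93% (95% Wilson interval 2.90 to 2.96%) and 3.04% (3.01 to 3.07%) of the counts of all miRNA genes. As a share of all reads, the family made up 0.9502% and 1.152%. The genes nearest to Mirlet7g in level over the 2 libraries were Mir106b at 18344 ± 929 CPM, Mir93 at 19797 ± 634 CPM and Mir322 at 17764 ± 328 CPM, by distance of log2(CPM + 1). Nearest to Mirlet7i were Mir382 at 7047 ± 128 CPM, Mir379 at 6740.3 ± 23.5 CPM and Mir135b at 7206 ± 293 CPM. Likeness of level in 2 libraries says nothing further about these genes. Mir1961 and Mir7k, whose listed mature forms carry the same seed at 17 and 19 bases, had 0 counts in both libraries, which allows a level of up to 2.34 and 2.31 CPM. All intervals and limits given here cover only counting error, since copies from PCR are not separate molecules.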

How the data were processed

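The deposited tables hold raw counts per miRNA gene, made by the authors on mm10 with GENCODE M4, per the text files deposited beside them. From their values, the columns were read as both strands, the gene's strand and the opposite strand. Which aligner was used is not given in the sources used here, nor is the counter. The leading rows for unmapped, multimapping, no-feature and ambiguous reads name no gene and stayed out of totals; multimapping reads were 29.5% and 29.2% of reads. The gene's strand held 96.4% and 96.8% of gene counts. Symbols and positions came from GENCODE M21 on GRCm38 (1894 of 1973 rows matched), sequences from RefSeq GRCm38.p6. The loop of 1 member is not reported here. The members, groupings, gene lists and tests were chosen with earlier results of these data known. Named genes were all members, their cluster partners, 3 other GGAG hairpins, genes with the seed, the 3 genes nearest in level to each of the 2 highest members, and tissue markers; Gm25927 and Gm24111 were added after their values were seen. The log2 ratio had 0.5 counts added. The pools are labelled biological replicates of the same donor entry, so SDs measure only the spread between these 2 libraries, which may be partly technical, and the binomial p-values cover counting error alone. The binomial test was tested on simulated data. Alternatives covered scaling, strand, denominators, count minimum, pseudocount, test and each replicate. Tools were Python 3.11.15, scipy 1.17.1, pandas 2.3.3, R 4.3.3, edgeR 4.0.16 and DESeq2 1.42.0.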

Additional observations from a re-analysis of the deposited data

Results flagged for a closer look

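Counts stood in the opposite-strand column, which the levels do not use, above the limit of 3 counts that a count of 0 allows. At the place of Mirlet7e these were 8572 in replicate 1 and 7816 in replicate 2, the 2nd and 3rd largest opposite-strand values of the libraries and 17.9% and 18.1% of all counts in that column. At the place of Mirlet7f-1 they were 30 and 34. Opposite to Mirlet7b, where GENCODE M21 has no gene on that strand, they were 4 and 7.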

How the results depend on the processing

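The order of the 10 members was the same in both libraries. TMM and DESeq2 scaling and all reads as denominator multiply all genes of a library by the same factor. They could therefore not change this order, nor could leaving out either replicate. The order was also identical with CPM per 100 bases of hairpin and with unstranded counts, which among the members add counts only to Mirlet7b. Member levels stayed between 96.6% and 100.3% of the reported value with TMM, DESeq2 scaling and unstranded counts. The family share of 2.99% became 2.89% with unstranded counts, 1.05% of all reads, 1.89% without the 10 most abundant genes, of which Mirlet7g is 1, and 3.60% with the strand counts of Mirlet7e and Mirlet7f-1, an alternative chosen after seeing the data that also moved Mirlet7g to 51.7% and Mirlet7i to 19.1% of the family. Members higher in replicate 1 fell from 1 to 0 with TMM, with DESeq2 size factors and in the edgeR exact test, and members lower from 1 to 0 in the edgeR exact test. Over all genes tested, 82 higher became 52 with TMM and 8 in the edgeR exact test, and 31 lower became 54 with TMM, 49 with DESeq2 size factors and 0 in the edgeR exact test (5 at an unadjusted p under 0.05). The cause of these changes was not tested. No paired analysis was possible because there is 1 group. The sign of the ratio of Mirlet7d changed with both scalings and that of Mirlet7a-1 with TMM, neither called. At 34 to 37 counts, Mirlet7c-2 could differ between libraries by a log2 ratio from -0.57 to 0.86.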
